A study of Danio rerio with 4 samples.

Results

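The genes her1, her3, her5, her6, her7 and her9 encode zebrafish transcriptional repressors, and the peaks of Sox2 and Pou5f1 that the deposited lists place beside them are described here. The intervals were those whose flanking-gene columns name 1 of the 6 genes, 69 of 22907 in all. They were 36 of 6129 for Sox2, 18 of 7130 for late blastula Pou5f1-Flag, 15 of 7747 for 512-cell Pou5f1-Flag and 0 of 1901 for Input. Joined across the 3 ChIP lists where they overlapped, they formed 49 positions: 5 at her1 and her7, which are neighbours and were counted together, 7 at her3, 4 at her5, 14 at her6 and 19 at her9.

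Sox2, a SoxB1 factor, was precipitated from untreated wild-type embryos at late blastula. Pou5f1, the zebrafish relative of mammalian Oct4, was precipitated through a Flag tag with the anti-FLAG M2 antibody from MZspg embryos, which lack maternal and zygotic Pou5f1 function and had been injected with Pou5f1-Flag mRNA. This was done at late blastula and at the 512-cell stage, and the tagged protein therefore came from injected RNA and not from the gene itself. Per the label of the late blastula sample, injection was at the 1-cell stage with a dose just enough for rescue. Input chromatin came from wild-type late blastula embryos and no antibody was used. Each group was 1 pooled sample of whole embryos, from 2000000 nuclei at 512 cells and 20000000 in each late blastula sample, so differences could not be set against a spread between replicates, and how a factor was distributed among cells was not measured. Input chromatin of injected embryos, or of 512-cell embryos, was not analysed here. Per list, the reads in intervals came to between 564835 and 966327, which are not library depths.

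Her proteins belong to the Hairy and Enhancer-of-split family. They bind DNA as dimers through a basic helix-loop-helix domain and repress transcription by recruiting Groucho/Tle corepressors through a short tail at the end of the protein. Many family members are targets of Notch signalling, and several hold cells of the early neural plate in an undifferentiated state. The pair her1 and her7 is known for a different role, as oscillating genes of the segmentation clock that repress their own transcription in the presomitic mesoderm.

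Positions are given on Zv9, counted from 1, with the strongest interval's reads where a list has more than 1 there. The first gene column holds the neighbour at lower coordinates. Exons and introns were not analysed here, and distances are taken from the stretch within which the late blastula lists change from naming the gene above to naming it below. That stretch was 1533 bp at her7, 2422 bp at her3, 4597 bp at her5, 17561 bp at her9 and 27008 bp at her6. No list gave her1 as the upper neighbour of an interval.

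**Figure D1:**
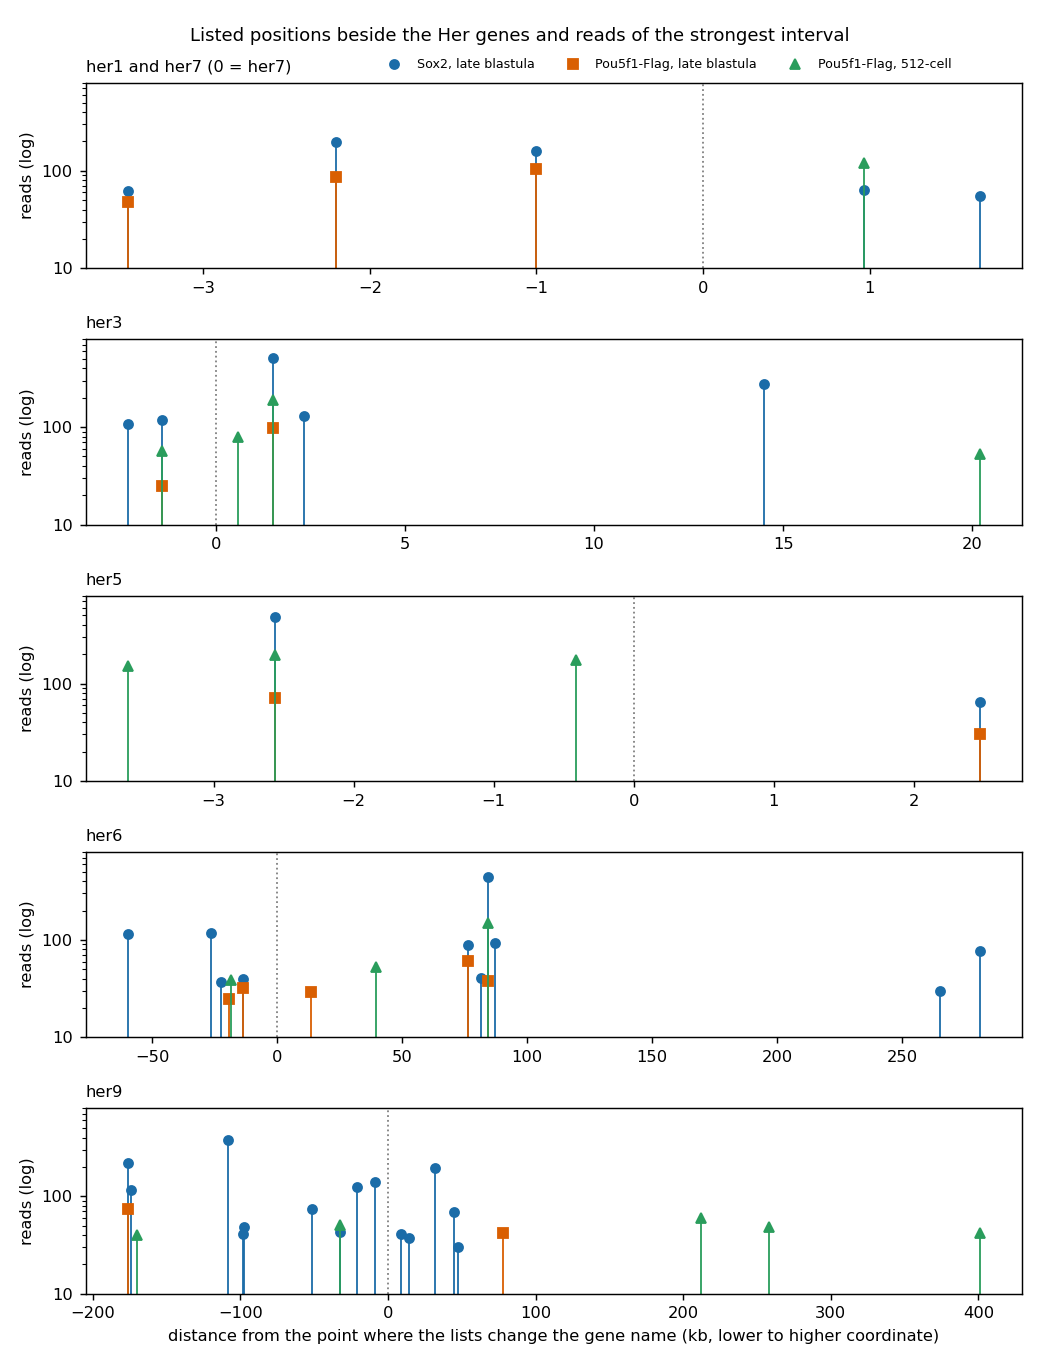
Positions beside each Her gene, placed by distance in kb from the middle of the stretch where the late blastula lists change the gene name (dotted line), with the reads of the strongest interval of each list on a log axis. The her1 and her7 positions lie within 5.47 kb, whereas those of her9 are spread over 578 kb. The x axes differ in scale.

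The clock genes her1 and her7 had 5 Sox2 peaks in a row, and late blastula Pou5f1-Flag at 3 of them. Those 3 lay between the genes. The lowest (chromosome 5, 71708742 to 71709142) had 62 Sox2 and 48 late blastula Pou5f1-Flag reads. The middle one (71709912 to 71710465) had 196 and 87 reads, and the upper one (71711152 to 71711622) had 158 and 104. By the strongest interval, Sox2 was thus highest at the middle position and Pou5f1-Flag at the one nearest her7. The middle and upper positions overlapped in counting error for both factors (exact Poisson 95% intervals 170 to 225 and 134 to 185 reads for Sox2, 69.7 to 107 and 85.0 to 126 for Pou5f1-Flag). The weaker Pou5f1-Flag intervals at the middle and upper positions had 72 and 53 reads, so by these the middle was higher, as for Sox2.

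None of these 3 positions was in the 512-cell list, which held only 12.7% of all late blastula Pou5f1-Flag positions. That list had its single peak of the pair on the far side of her7 (71713150 to 71713554, 120 reads). Sox2 had 64 reads there and late blastula Pou5f1-Flag had no interval. The false discovery rate of the 512-cell peak was 1.63%, where the highest in that list is 2.47%. Above it, a position (71713883 to 71714210) was held by Sox2 alone, with 55 reads. The 2 Pou5f1-Flag lists thus held different positions at this pair, each shared with Sox2. The 512-cell list gives her1 and si:ch211-283h6.4 as the genes on each side of its peak, and the Sox2 list gives her7 and si:ch211-283h6.4 for the interval overlapping it.

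At her3, which represses neurogenesis in the neural plate, the lists met on 2 positions. The stronger (chromosome 8, 48794556 to 48795169) lay between her3 and tas1r2.2, a taste receptor gene, and had 510 Sox2, 97 late blastula and 191 512-cell Pou5f1-Flag reads. Its rank was 60 of 6129 in the Sox2 list, 795 of 7130 in the late blastula and 194 of 7747 in the 512-cell Pou5f1-Flag list. The other (48791688 to 48792134), between tas1r2.1 and her3, had 117, 25 and 57 reads in the same order. It was near the lower end of the late blastula Pou5f1-Flag list (rank 6222), with a false discovery rate of 2.77%, the highest that list holds. The 512-cell list names tas1r2.1 and tas1r2.2 there and passes over her3, so its flanking genes alone would have left that interval out.

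Around these, Sox2 alone had 107 reads at 48790777 to 48791268, 130 reads at 48795474 to 48795874 and 280 reads at 48807531 to 48808120. The last ranked 296 of 6129 and had no Pou5f1-Flag interval of either stage. At 512 cells alone, Pou5f1-Flag had 79 reads at 48793746 to 48794096, 459 bp below the strong shared position, and 53 reads at 48813448 to 48813742. For the interval of 53 reads that list does not name tas1r2.2 as the upper neighbour of her3. Whether it lies beyond tas1r2.2 was not determined. Of the 7 positions at her3, 5 lay within about 5 kb around the gene.

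At her5, which keeps the midbrain-hindbrain boundary free of early neurons, the strongest peak of all 3 ChIP lists was the same position, between her5 and the related repressor gene her11 (chromosome 14, 31412188 to 31412701). It had 487 Sox2, 71 late blastula and 198 512-cell Pou5f1-Flag reads, at ranks 69, 1488 and 184. On both sides of it the 512-cell list had further strong intervals that no late blastula list held. One lay 524 bp below (31411112 to 31411663, 150 reads, rank 350) and the other 1591 bp above (31414293 to 31414874, 174 reads, rank 248). Of the 786 strongest positions in the whole 512-cell list, 31.2% overlapped Sox2 and 44.7% overlapped late blastula Pou5f1-Flag. Absence from either late blastula list was therefore common among strong 512-cell intervals and not particular to her5. The exact Poisson intervals of the 3 peaks at 512 cells were 127 to 176, 171 to 228 and 149 to 202 reads in coordinate order, each overlapping at least 1 other.

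The fourth her5 position (31417298 to 31417642) lay between her5 and pfdn6, a chaperone subunit gene, with 65 Sox2 and 30 late blastula Pou5f1-Flag reads and no 512-cell interval. Sox2 and late blastula Pou5f1-Flag thus held the same 2 positions beside her5, and 512-cell Pou5f1-Flag shared 1 of them.

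**Figure D2:**
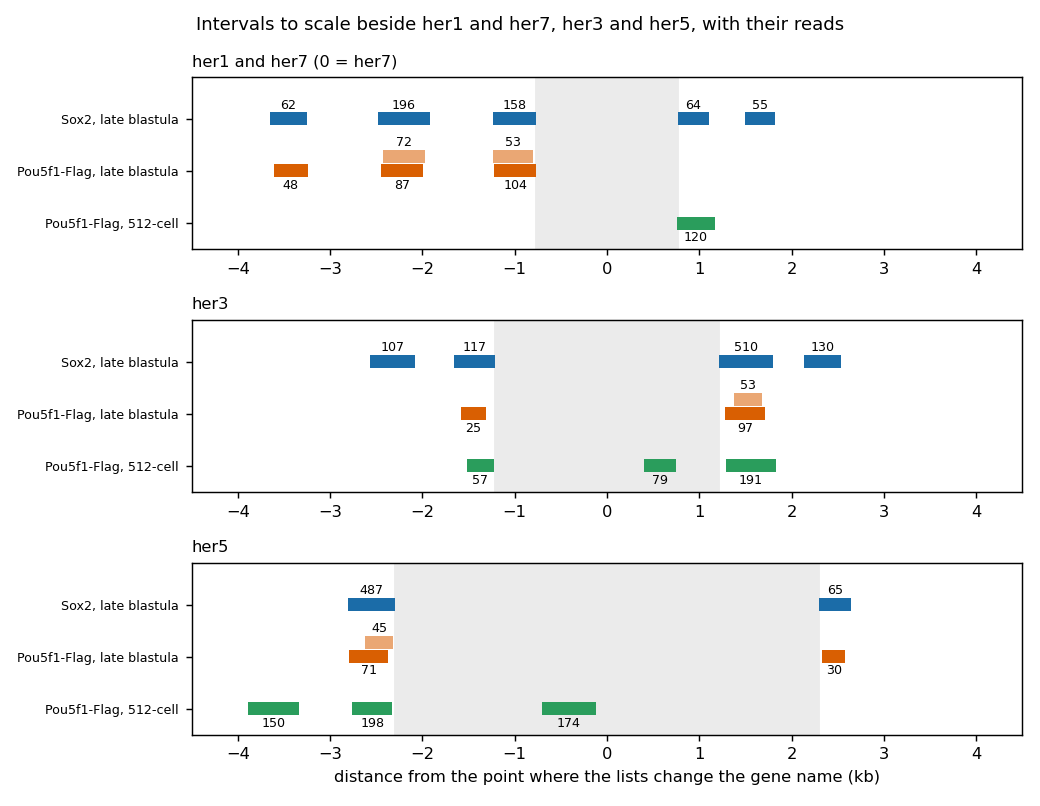
Intervals of the 3 ChIP lists drawn to scale within 4.5 kb of her7, her3 and her5, with their read counts, in kb from the middle of the stretch where the late blastula lists change the gene name (grey). Pale orange bars are intervals of the first pass of the late blastula Pou5f1-Flag list. At her5 the 512-cell list has peaks of 150 and 174 reads on each side of the shared position.

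At her6, the counterpart of mammalian Hes1, the positions were spread over 340 kb. The strongest lay about 84.2 kb above the gene, on the side of opa1, a gene for mitochondrial fusion (chromosome 6, 36403256 to 36403931). Sox2 had 441 reads there (rank 94) and 512-cell Pou5f1-Flag 148 (rank 363), whereas late blastula Pou5f1-Flag had only 38 (rank 3862) at a false discovery rate of 2.77%. The late blastula Pou5f1-Flag interval was short (264 bp, against 676 bp for Sox2 and 482 bp at 512 cells), and its centre lay 148 bp below that of Sox2. Late blastula Pou5f1-Flag was strongest at 36395355 to 36395790, also on the opa1 side, with 61 reads beside 88 for Sox2 and no 512-cell interval.

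On the side of lrrc15, Sox2 alone had 116 reads at 36259597 to 36260018, 117 at 36292706 to 36293146 and 37 at 36296855 to 36297120. Sox2 and late blastula Pou5f1-Flag shared a weak position (36305595 to 36305894) with 40 and 32 reads. Late blastula Pou5f1-Flag alone had 25 reads at 36300117 to 36300380, and 596 bp above it 512-cell Pou5f1-Flag alone had 39 reads at 36300977 to 36301269. On the opa1 side, Sox2 alone had 4 more positions, of 30 to 94 reads, late blastula Pou5f1-Flag alone had 1 of 29 reads and 512-cell Pou5f1-Flag alone had 1 of 53. Of the 14 positions 6 thus lay on the lrrc15 side, where the highest count was 117 reads, and 8 on the opa1 side.

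At her9, which marks the stretches between proneural domains of the zebrafish neural plate, 14 Sox2 peaks were listed. Late blastula Pou5f1-Flag shared 1 of them and 512-cell Pou5f1-Flag another 1, where 28.8% and 9.32% of the whole Sox2 list were shared. The strongest Sox2 peak (chromosome 23, 23593425 to 23594160) had 376 reads, ranked 145 of 6129 and was in no Pou5f1-Flag list. The next (23525781 to 23526301) had 220 Sox2 reads and was the single position that late blastula Pou5f1-Flag shared (74 reads, rank 1371). Sox2 alone followed with 193 reads at 23734027 to 23734475, 141 at 23692967 to 23693417, 126 at 23680872 to 23681534 and 115 at 23528220 to 23528591. The other 8 Sox2 peaks had 30 to 74 reads.

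The 512-cell list had 5 intervals beside her9, of 40 to 60 reads, where the median of the whole list was 52. The strongest of them ranked 2486 of 7747. Only that at 23669681 to 23669968 (51 reads) overlapped a Sox2 interval (43 reads), with centres 136 bp apart. The 3 farthest, from 23914298 to 24103723, are named her9 and ptpn11b, whereas the late blastula lists name agrn as the upper neighbour of her9. A late blastula Pou5f1-Flag interval below the farthest is listed beside agrn and ptpn11b, so the farthest of the 3 lies beyond agrn by the late blastula columns, and for the other 2 the side of agrn cannot be told. The last late blastula Pou5f1-Flag interval beside her9 (23779733 to 23780022) had 42 reads and was unshared.

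By reads, the order of the genes by strongest peak differed between lists, and so did which gene came first. By reads per kb of interval, her5 came first for Sox2 (top 0.343%) and at 512 cells (top 1.12%). By that measure her1 and her7 came first for late blastula Pou5f1-Flag (top 6.76%). For Sox2 the reads were 510 at her3, 487 at her5, 441 at her6, 376 at her9 and 196 at her1 and her7. The first 3 overlapped one another in their exact Poisson intervals (467 to 556, 445 to 532 and 401 to 484 reads), her9 (339 to 416) overlapped her6 alone, and her1 with her7 (170 to 225) lay below all others. For late blastula Pou5f1-Flag, her1 and her7 came first with 104 reads (85.0 to 126), before her3 with 97 (78.7 to 118), her9 with 74, her5 with 71 and her6 with 61 (46.7 to 78.4). Neighbours in that order overlapped, whereas her6 lay below her3 and below her1 with her7. At 512 cells her5 (198 reads, 171 to 228), her3 (191 reads, 165 to 220) and her6 (148 reads, 125 to 174) overlapped one another. The peak named after her1, which lies on the far side of her7 (120 reads, 99.5 to 143), overlapped her6 alone. Below all others lay her9 (60 reads, 45.8 to 77.2). No 512-cell interval names her7, but the Sox2 list names her7 for the interval overlapping the peak of 120 reads.

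All 6 genes, through 5 peaks since her1 and her7 share theirs, had their strongest Sox2 peak in the top 10% of the Sox2 list by reads, which was so for 18.9% of the 5003 genes that list names. In the 512-cell list this held for 4 of the 5 genes named, all but her9, against 16.3% of 7070 genes. Of the peaks of those 4, that named after her1, on the far side of her7, had a false discovery rate of 1.63%. That of her6 had 1.21%. For late blastula Pou5f1-Flag, her1 and her7 reached the top 10%, through the same peak, against 17.3% of 5346 genes. Ranked by reads per kb of interval, 4 genes were in the top 10% in each of the 3 lists. These were her3, her5, her6 and her9 for Sox2, and her1, her3, her7 and her9 for late blastula Pou5f1-Flag. At 512 cells they were her1, her3, her5 and her6. The share of all genes by that ranking was not analysed here. These comparisons of the strongest peak were not adjusted for the number of positions per gene. For Sox2 that number ranged from 2 at her5 to 14 at her9, with a median of 2 over all genes named. Counted over positions, 8 of 36 Sox2 positions (22.2%) were in the top 10%, against 10.1% of the list, 6 of 15 at 512 cells (40.0%, against 10.1%) and 1 of 14 for late blastula Pou5f1-Flag (7.14%, against 10.2%). The 15 leave out the her3 interval that the 512-cell list names after its outer neighbours.

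**Figure D3:**
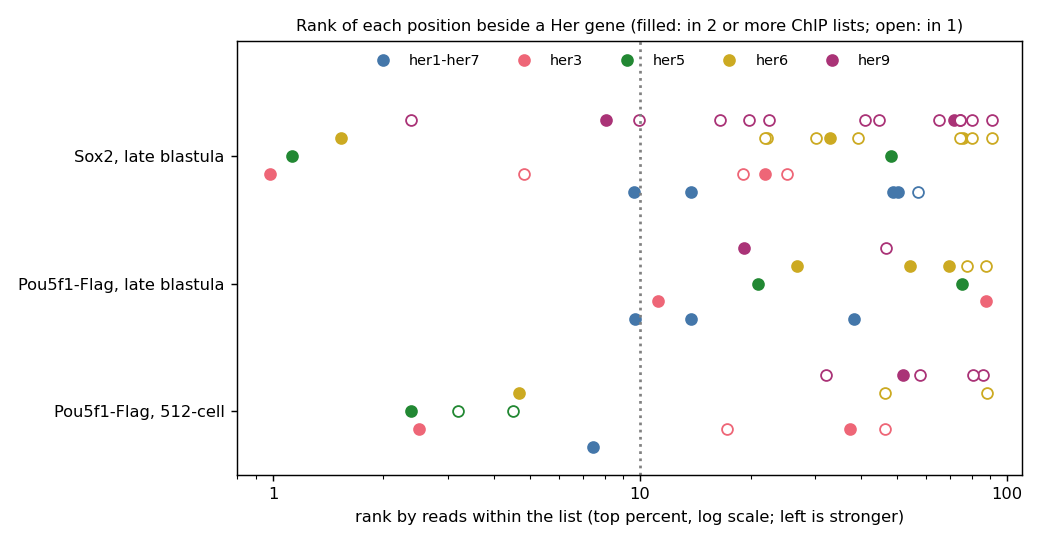
Rank by reads, within its own list, of each position beside a Her gene, as top percent on a log axis, with 1 row of points per region. Filled points are in 2 or more ChIP lists and open points in 1, and the dotted line marks the top 10%. The Sox2 row holds 8 positions left of the line, the late blastula Pou5f1-Flag row 1 and the 512-cell row 6.

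The number of positions per gene ranged widely. Sox2 had 14 positions at her9 and 10 at her6, and only 0.540% and 1.70% of the genes in that list had as many, where the median was 2. It had 5 at her3 and at her7, 3 at her1 and 2 at her5. Late blastula Pou5f1-Flag had 5 at her6, 3 at her1 and her7 and 2 at each of her3, her5 and her9, with a median of 1 over its genes. The stretch over which a gene is named differs, from 5.47 kb at her1 and her7 to 578 kb at her9 over the 3 lists together. The 578 kb reach to 512-cell intervals that name ptpn11b, and not agrn, above her9. For Sox2 the stretch was 224 kb at her9 and 340 kb at her6, and for late blastula Pou5f1-Flag 254 kb and 103 kb. The part of these differences in the counts was not tested. Peaks also lay close together: 13 of the 36 Sox2 positions (36.1%) had another Sox2 position within 2000 bp, against 16.5% of the list. At 512 cells these were 5 of 15 (33.3%, against 8.91%) and for late blastula Pou5f1-Flag 3 of 14 (21.4%, against 21.9%).

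How often the factors met at these genes was asked by overlap. Of the 14 late blastula Pou5f1-Flag positions, 11 (78.6%, exact 95% interval 49.2 to 95.3) also had a Sox2 peak, where 27.1% of that list did. In the other direction 11 of 36 Sox2 positions (30.6%, 16.3 to 48.1) had a late blastula Pou5f1-Flag peak, close to the 28.8% of the whole Sox2 list. The 3 late blastula Pou5f1-Flag positions without Sox2 had 25 to 42 reads and lay at her6 and her9. The 11 with Sox2 had 25 to 104 reads, and the median of the whole list was 41.

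At 512 cells 5 of the 15 Pou5f1-Flag positions that name a Her gene (33.3%, 11.8 to 61.6) coincided with a late blastula Sox2 peak, against 7.44% of that list, and 3 (20%, 4.33 to 48.1) with late blastula Pou5f1-Flag, against 10.8%. Conversely, 6 of 36 Sox2 positions (16.7%, 6.37 to 32.8) were in the 512-cell list, against 9.32%, but 2 of 32 (6.25%, against 5.32%) among intervals with a false discovery rate of at most 1%. The 512-cell list also held 4 of 14 late blastula Pou5f1-Flag positions (28.6%, 8.39 to 58.1), against 12.7% of all. The 4 positions that both Pou5f1-Flag stages held all had Sox2 as well: 2 at her3, of which the 512-cell list names 1 after other genes, and 1 each at her5 and her6. Over the whole series, 391 positions held by both Pou5f1-Flag stages had Sox2 and 421 did not. The 4 Her positions were 8.16% of the 49 (2.27 to 19.6), where 2.23% of all 17552 positions were in all 3 lists. Both shares depend on how many positions each list contributed. Counted over Sox2 intervals, 4 of 36 were in all 3 lists, against 6.27% of the whole Sox2 list. At a false discovery rate of at most 1%, or with the first pass of the late blastula Pou5f1-Flag list alone, 2 were left. Positions beside 1 gene are not independent of each other, and the intervals count them as if they were.

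Stronger positions were shared more often in the Sox2 and 512-cell lists, so the top 10% of each was also compared. Of the 8 Sox2 positions there, 5 (62.5%) had late blastula Pou5f1-Flag, against 73.4% of all in that part of the list, and 3 (37.5%) had 512-cell Pou5f1-Flag, against 33.1%. The 3 without late blastula Pou5f1-Flag were those of 280 reads at her3 and of 376 and 193 reads at her9. Of the 6 strong 512-cell positions, 4 (66.7%) had Sox2, against 31.2%, and 3 (50.0%) had late blastula Pou5f1-Flag, against 44.7%. Among all Her positions of the Sox2 list, the median was 158 reads (40 to 510) with late blastula Pou5f1-Flag and 74 (30 to 376) without it, and these ranges overlapped.

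**Figure D4:**
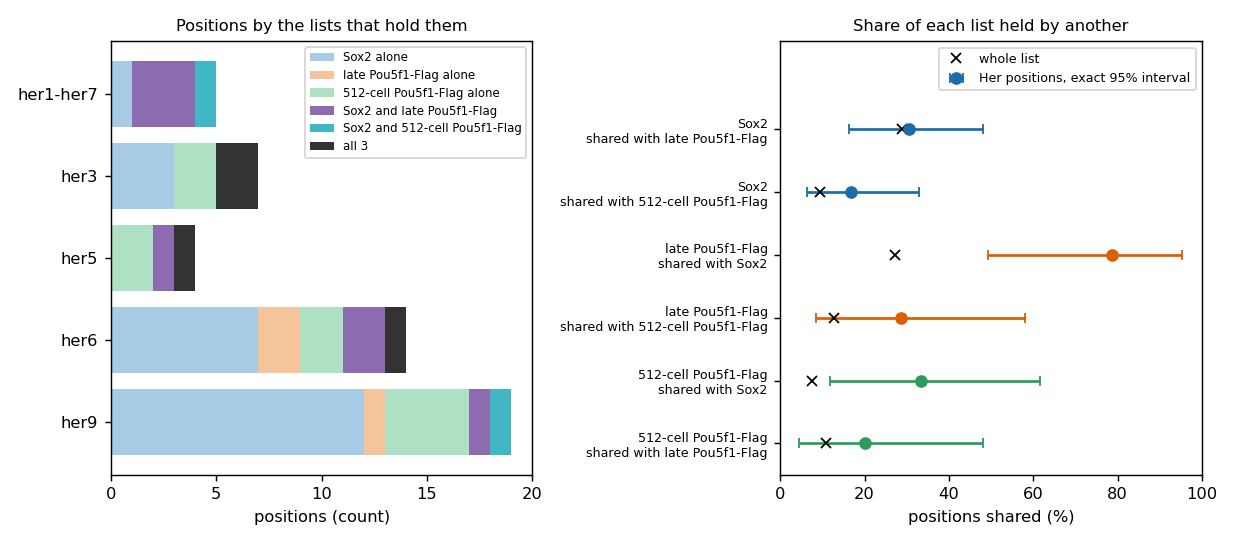
Left, number of positions beside each Her gene by the ChIP lists that hold them. Right, percent of each list's Her positions shared with another list (points, exact 95% interval) beside the percent of the whole list (crosses); the late blastula Pou5f1-Flag positions shared with Sox2 stand at 78.6% beside 27.1%.

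Most unshared positions belonged to Sox2. It held 23 of the 49 alone (46.9%, against 23.8% of all positions), of which 12 lay at her9 and 7 at her6. The 512-cell list held 10 alone (20.4%, against 38.3%) and late blastula Pou5f1-Flag 3 (6.12%, against 24.5%). These shares also depend on how many Her positions each list had, which was 36 for Sox2, 15 at 512 cells and 14 for late blastula Pou5f1-Flag. They do not show that Sox2 peaks were unshared more often here than elsewhere. Late blastula Pou5f1-Flag overlapped 30.6% of the Sox2 positions here and 28.8% in the whole Sox2 list. The 512-cell list overlapped 16.7% here and 9.32% there. At her3, at her5 and from her1 to her7, no late blastula Pou5f1-Flag position was without Sox2, and at her5 no Sox2 position was without late blastula Pou5f1-Flag.

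The distance between centres was measured where lists shared a Her position. Between Sox2 and late blastula Pou5f1-Flag the 15 overlapping pairs of intervals had a median distance of 16.5 bp (0 to 148), where that over all 2205 such pairs was 38 bp. That list has intervals of its 2 passes at some positions: their centres lay 9.5 bp below and 27 bp above that of Sox2 at the strong her3 position, and 24 bp below and 1 bp above it at the middle her1 to her7 position. Between Sox2 and 512-cell Pou5f1-Flag the median was 42 bp over 6 pairs (12 to 136), where all 577 gave 52 bp. The shared positions at her3, her5, her6 and her7 put the 512-cell centre 12 to 62 bp above that of Sox2, and the her9 position put it 136 bp below. Between the 2 Pou5f1-Flag lists the median was 67.5 bp over 6 pairs (27 to 160), where all 1019 gave 71 bp.

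The chromosomes come round 2 times in the list of late blastula Pou5f1-Flag, and 4 Her positions were called in both passes. The second pass had 97 reads and the first 53 at her3, 71 and 45 at her5, and 87 and 72 and then 104 and 53 at the middle and upper her1 to her7 positions. The second pass had more reads at each. It also holds more intervals (5913, against 1217 in the first), and the reads of the passes were not compared over the whole list. All 4 Her intervals of the first pass overlapped one of the second, as did 51.5% of the 1217 first-pass intervals. The design mentions technical duplicates of Pou5f1 without tying them to these passes.

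Input had no interval beside any of the 6 genes, where it named 9.39% of the 9679 genes named in any list. The Input list was cut differently, with false discovery rates up to 23.5%, against at most 2.83% in the ChIP lists. None of the 36 Sox2, 14 late blastula and 15 512-cell Pou5f1-Flag positions overlapped Input (upper exact bounds 9.74%, 23.2% and 21.8%), where 3.35%, 6.22% and 2.25% of the whole lists did. The nearest Input interval was 201 kb from her1 and her7, 451 kb from her9 and at least 1440 kb from her3, her5 and her6. The ChIP lists named all 6 genes for Sox2 and late blastula Pou5f1-Flag, where 51.7% and 55.2% of the 9679 genes were named, and 5 of 6 at 512 cells, where 73.0% were. The gene not named at 512 cells was her7, although the peak named after her1 lies on the far side of her7. All 3 lists named 5 of the 6, against 25.7% of genes. The 6 genes were chosen with earlier results of these data known, so these counts of named genes are no test.

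Among 22 other genes of the Hairy and Enhancer-of-split family, 13 (59.1%) were named beside a Sox2 peak, 10 (45.5%) beside late blastula Pou5f1-Flag, 9 (40.9%) beside 512-cell Pou5f1-Flag, 2 (9.09%) beside Input and 8 (36.4%) in all 3 ChIP lists. The shares over the 9679 genes were 51.7%, 55.2%, 73.0%, 9.39% and 25.7%, but these count genes named in at least 1 list, whereas 8 of the 22 were in none. The foremost for Sox2 was her11, which partners her5 at the midbrain-hindbrain boundary and has the same 487-read position. Next came her8a, with 373 Sox2 and 124 late blastula Pou5f1-Flag reads and no 512-cell interval, and her15.2, with 334, 73 and 82 reads in the order Sox2, late blastula and 512-cell Pou5f1-Flag. The her4 and her15 genes are near-identical neighbours, so which copy a list names is uncertain. Of these, her4.1 had 1 Sox2 position of 41 reads, and her4.2 to her4.5 and her15.1 were named in no list.

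Of the 6 genes listed for Groucho/Tle corepressors, 5 (83.3%) were in all 3 ChIP lists and 0 in Input, against 25.7% and 9.39% of the 9679 genes. Those 9679 are named in at least 1 list, as were 5 of the 6. The foremost for Sox2 among the 6 were tle3a (876, 169 and 185 reads), tle3b (473, 132 and 54) and tle2a (154, 73 and 217). Of 17 other genes of the segmentation clock and the presomitic mesoderm, which share hes6 with the family list, 11 (64.7%) were named for Sox2, 6 (35.3%) for Pou5f1-Flag at late blastula, 11 (64.7%) for Pou5f1-Flag at 512 cells, 1 (5.88%) for Input and 5 (29.4%) in all 3 ChIP lists, to be read against the same shares over all genes. The foremost for Sox2 were fgf8a, a ligand gene (449, 44 and 177 reads), the notochord and mesoderm gene tbxta (381, 156 and 134) and tbx16, a T-box gene of the paraxial mesoderm (355, 143 and 116). The Notch ligand gene dlc, which cycles with her1 and her7, had 302, 89 and 123 reads. These are the strongest intervals of each gene and need not lie at the same position.

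By rank of the strongest peak, the 5 members named in all 3 ChIP lists had a median profile at the top 1.53% of the Sox2 list, 19.2% of the late blastula and 4.69% of the 512-cell Pou5f1-Flag list. Over the 3 lists and 2486 genes, the closest genes by Euclidean distance in these percent units were irx5a, an Iroquois homeobox gene, and NM_200105 (both at 2.09, with the same ranks), the Wnt receptor gene fzd8b (2.49), prph2b (2.52) and her11 (2.86), which shares its strongest peak in each list with her5. Of the members themselves, her5 lay 2.86 from that profile, her6 7.43, her3 8.39, her1 12.8 and her9 27.4.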

How the data were processed

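The data are ChIP-seq, sequencing of DNA precipitated with a bound protein, from 4 zebrafish samples, 1 per group. The authors deposited a peak list for each sample, called on that sample alone. Per the file headers, each interval has a count of reads with its forward and reverse counts, a false discovery rate in percent, a Wilcoxon filter p-value, a gene accession on each side and a normalized difference. By recalculation, the last is the deposited fraction of reads by which the strands differ. Per the submitters' processing notes, CASAVA was used. The sources used here give no aligner or peak caller. Interval identifiers of the 3 late blastula lists carry Zv9, and the 512-cell list, whose identifiers name no build, was taken as the same.

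Accessions were converted to symbols through RefSeq (GRCz12tu, names and neighbours alone). They matched for 94.5% of Sox2, 95.1% of late blastula Pou5f1-Flag, 95.6% of 512-cell Pou5f1-Flag and 92.0% of Input accessions. Overlapping intervals were merged into positions, and 1 bp of overlap counted as shared. Intervals were ranked by reads within their own list. Library totals were not analysed here, and reads were not compared between lists. With 1 sample per group there was no test. Shares have exact Clopper-Pearson and reads exact Poisson 95% intervals, which cover counting error only, since reads without molecular identifiers are not independent molecules. Overlap and merging were tested on simulated intervals. Alternatives changed the false discovery rate, the overlap rule, merging, the passes of the late blastula Pou5f1-Flag list, the ranking and the Input distance. Named genes were the 6 members, their neighbours, the 3 genes of each gene list with the best Sox2 rank and the 5 closest to the members by rank. The members, lists and rules were chosen with earlier results of these data known. A few other genes in the text were chosen after their values were seen. Python 3.11.15, pandas 2.3.3 and SciPy 1.17.1 were used.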

Additional observations from a re-analysis of the deposited data

How the results depend on the processing

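Of 45 comparisons of the main counts and shares with an alternative, 35 stayed within 1.5 times the count or within the exact interval of the share. Some of these could not move. No Her interval overlapped Input, and no Her intervals of the Sox2 or the 512-cell list overlapped within their list. The exact intervals were also wide, such as 8.39 to 58.1, so the 35 do not measure how firm the results are. At a false discovery rate of at most 1%, late blastula Pou5f1-Flag kept 9 of 14 positions, 512-cell Pou5f1-Flag 6 of 15 and Sox2 32 of 36. The share that each whole list kept was not analysed here, so whether Her positions were lost more often cannot be told. At this cut the share of Sox2 positions with a 512-cell peak was 6.25% (5.32% of the whole list), and 2 positions, the strong ones at her3 and her5, were in all 3 lists. With the first pass of the late blastula Pou5f1-Flag list alone, 4 positions were left, 11.1% of Sox2 positions were shared with them (8.55% of the whole list), 100% of them had Sox2 (42.9%), 2 were in all 3 lists and 0 genes were in its top 10%. These alternatives use fewer intervals by construction. Ranked by reads per kb, 4 genes were in the top 10% for late blastula Pou5f1-Flag in place of 2, and the share of all genes was not analysed for that ranking. Centres within 100 bp left 10 of the 11 positions shared by Sox2 and late blastula Pou5f1-Flag and 3 of the 4 in all 3 lists. Counting the 512-cell interval at her3 that names other genes, an alternative added after seeing the data, gave 6 of 16 positions (37.5%) with Sox2 and 4 (25.0%) with late blastula Pou5f1-Flag, and its overlap with both is how it enters. No alternative brought an Input interval to a Her position. No paired analysis was possible because each group holds 1 sample. Depth limits the weak intervals most: 25 reads have an exact Poisson interval of 16.2 to 36.9.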

Other observations

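The weak her6 position at 36305595 to 36305894 on chromosome 6 had exactly the same 300 bp in the Sox2 and the late blastula Pou5f1-Flag lists, and reads leaned to the reverse strand in both, with 13 forward and 27 reverse reads for Sox2 and 9 and 23 for Pou5f1-Flag. Of the 1766 Sox2 intervals that overlap that list, 14 (0.793%) have identical coordinates in it, and no Sox2 interval has identical coordinates in the 512-cell list.

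Among the other family genes, her13 stood apart in the lists: 18 late blastula Pou5f1-Flag positions and 4 of Input were named beside it, with 1 Sox2 position of 37 reads and a 512-cell interval of 436 reads.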
